A study of Homo sapiens with 12 samples.

Results

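The MYC and MAX network was read as 10 genes, MYC, MAX, MXD1, MXD3, MXD4, MXI1, MNT, MLX, MLXIP and MGA, found by stable Ensembl identifier among the 60483 gene rows of each library. All 10 passed the filter on low counts, as did 14822 genes in all. RNA came from MCF10A, an immortalised, non-transformed human mammary epithelial line carrying a TAZ-4SA transgene that doxycycline (Dox) switches on. TAZ is a transcriptional co-activator held back by the Hippo pathway, and 4SA is its constitutively active form. The 12 libraries formed 4 groups of 3. The No Dox group carried the same transgene without Dox, and the other groups received 0.05 µg/mL Dox for 24, 48 or 72 h. Cells given Dox without the transgene were not analysed here, so effects of Dox, of TAZ-4SA and of time in culture cannot be told apart. The labels do not say whether the 3 libraries of a group were separate cultures, so the p-values may measure technical spread only. The 3 comparisons with No Dox share the same control libraries.

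MYC is a basic helix-loop-helix leucine zipper protein that binds the E-box sequence as a dimer with MAX and activates genes for ribosome building, nucleotide synthesis and growth. MAX is the common partner. The MXD proteins, MXI1 and MNT also pair with MAX and bind the same E-boxes, but recruit the SIN3 corepressor and histone deacetylases, so they oppose MYC. MGA pairs with MAX inside a polycomb complex, PRC1.6, that silences germline genes. MLX is a second hub, which pairs with MLXIP (MondoA), a sensor of glucose metabolites, and with some MXD proteins and MNT. In epithelial cells, MXD and MXI1 genes are known for rising when cells leave the cycle or differentiate.

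Each library summed to between 15382564 and 26570132 expected counts. The induced gene WWTR1, which encodes TAZ, was at 71.7 ± 2.88 CPM (counts relative to library size after TMM scaling, mean ± SD with n = 3 here and below) without Dox and at 844 to 994 CPM in Dox. Mitochondrial transcripts made up 5.03 to 5.27% of counts without Dox and 3.07 to 3.71% in Dox. All 9 mammary epithelial markers were detected in every group. Their sum was 6928 to 7420 CPM without Dox and 4604 to 7396 CPM in Dox, but single markers moved in opposite directions. At 72 h 2 were at least 2-fold higher and 3 lower. KRT8 went from 211 ± 7.76 to 2229 ± 118 CPM and KRT18 from 368 ± 13.8 to 1920 ± 137 CPM. KRT17 went from 2366 ± 87.3 to 600 ± 42.4 CPM and KRT5 from 3521 ± 157 to 1651 ± 70.7 CPM. TP63, a basal marker, went from 77.4 ± 0.804 to 1.49 ± 0.118 CPM. Of 15 markers of blood, endothelial, stromal and liver cells, CD3E, COL1A2 and MS4A1 were among those with 0 counts throughout, which allows up to 0.0518 CPM in a group (3 counts, counting error only). The sum over these 15 was 86.2 to 91.9 CPM without Dox, mostly DCN (50.1 ± 0.954 CPM) and CD14 (21.1 ± 1.89 CPM), and 7.98 to 13.7 CPM in Dox, and its part in the results below was not tested. In bulk RNA, fewer cells of a type and less RNA per cell cannot be told apart.

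The promoters of MXD4, MXI1 and MNT, which fell in Dox, and of MXD3, which rose, are shown because these members had contrasting courses. The sequences are from RefSeq (GRCh38.p14), cover positions -250 to -51 before the annotated start on the gene's strand, and hold no annotated exon. The motifs searched, on both strands and over 250 bases, were the E-box CACGTG, the TEAD motif GGAATG, the E2F motif TTTCCCGC and the AP-1 motif TGANTCA. Capitals mark the matches.
MXD4, chr4:2262160-2262359, minus strand: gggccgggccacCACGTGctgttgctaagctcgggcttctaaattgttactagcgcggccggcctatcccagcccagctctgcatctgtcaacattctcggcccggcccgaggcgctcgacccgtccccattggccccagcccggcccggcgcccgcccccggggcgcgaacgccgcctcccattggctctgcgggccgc
MXI1, chr10:110207355-110207554, plus strand: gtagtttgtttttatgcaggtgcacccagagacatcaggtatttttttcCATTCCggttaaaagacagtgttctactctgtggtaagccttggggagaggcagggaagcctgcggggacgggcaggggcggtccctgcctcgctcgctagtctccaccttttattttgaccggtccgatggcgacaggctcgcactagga
MNT, chr17:2401111-2401310, minus strand: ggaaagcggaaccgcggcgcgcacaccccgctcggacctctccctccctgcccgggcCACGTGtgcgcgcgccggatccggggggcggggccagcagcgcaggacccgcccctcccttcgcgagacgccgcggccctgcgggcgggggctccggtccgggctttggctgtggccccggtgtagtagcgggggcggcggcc
MXD3, chr5:177312803-177313002, minus strand: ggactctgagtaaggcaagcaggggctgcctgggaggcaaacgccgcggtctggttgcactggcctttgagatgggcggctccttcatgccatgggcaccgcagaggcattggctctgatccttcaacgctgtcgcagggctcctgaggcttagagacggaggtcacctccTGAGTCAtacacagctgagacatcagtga
The E-box that the network itself binds occurred in the windows of MXD4 (from -238), MNT (from -193) and MLX (from -50), against 6.34% of all 35116 promoter windows. The TEAD motif, bound by the partners of TAZ, read on the opposite strand in 1 of 3 MXI1 windows (the one printed, from -201), was also found in MLX and in 1 of 3 MGA windows, against 11.9% of windows. The AP-1 motif occurred in MXD3 (from -79), against 6.57%, and the E2F motif (1.39% of windows) in no member. The other 9 members had a window and MYC had no entry. A match describes the letters in a window and not binding.

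MYC RNA was lower at every time in Dox, and part of the difference was gone by 72 h. The 3 No Dox libraries held 587, 598 and 597 CPM of MYC (ENSG00000136997). At 24 h they held 262, 258 and 267 CPM, at 48 h 273, 257 and 266 CPM, and at 72 h 323, 346 and 323 CPM. No library in Dox overlapped one without it, the 24 h and 48 h libraries overlapped each other, and every 72 h library lay above both. The log2 fold change against No Dox was -1.18 at 24 h (SE 0.04, adjusted p = 1.04e-15), -1.16 at 48 h (SE 0.04, adjusted p = 1.53e-15) and -0.85 at 72 h (SE 0.04, adjusted p = 3.5e-13), by edgeR's quasi-likelihood test with Benjamini-Hochberg adjustment over all genes tested, as for every adjusted p below. From 48 to 72 h MYC rose by 0.32 (log2, adjusted p = 1.18e-05), whereas 48 h against 24 h gave 0.02 (95% interval -0.08 to 0.11, adjusted p = 0.82). The other MYC genes did not fill in on the scale of MYC. MYCN had 0 counts in all libraries, and MYCL rose from 0.239 ± 0.144 to 1.33 ± 0.175 CPM at 72 h (log2 fold change 2.51, adjusted p = 3.01e-05).

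**Figure D1:**
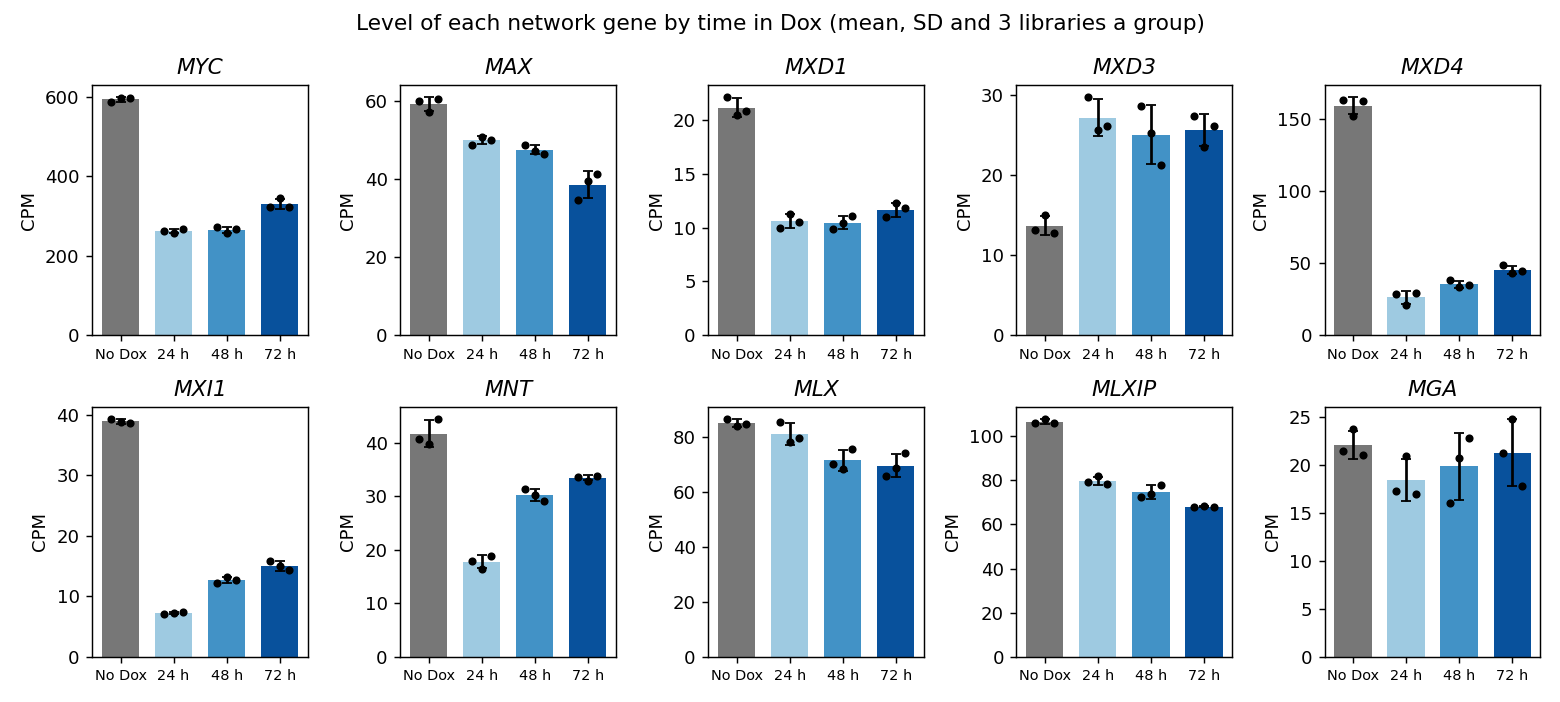
Level in CPM of each of the 10 network genes without Dox and after 24, 48 and 72 h in Dox; bars are means, error bars SD and points the 3 libraries of a group. MXD4 and MXI1 fell furthest and partly returned, MXD3 alone was higher in Dox, and the MGA libraries of all groups lay between 16 and 24.8 CPM.

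Of the 5 partners that oppose MYC 4 fell, and MXD4 and MXI1 had larger fold changes than MYC. MXD4 held 163, 152 and 162 CPM without Dox, 28.5, 20.8 and 29 CPM at 24 h, 38, 33.4 and 34.6 CPM at 48 h, and 48.6, 43.3 and 44.2 CPM at 72 h. The 4 groups did not overlap, and the lowest was 24 h. MXD4 was 6.1-fold lower at 24 h (log2 -2.61, SE 0.09, adjusted p = 1.68e-16), 4.51-fold lower at 48 h and 3.5-fold lower at 72 h. Both steps upward passed the test, by 0.44 from 24 to 48 h (adjusted p = 0.000981) and by 0.36 from 48 to 72 h (adjusted p = 0.00299), the second only without effective lengths (0.26, adjusted p = 0.0944).

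MXI1, the MAX partner also called MXD2, fell and partly returned as MXD4 did. Its libraries held 39.4, 38.8 and 38.7 CPM without Dox, 7.16, 7.2 and 7.5 CPM at 24 h, 12.2, 13.2 and 12.7 CPM at 48 h, and 15.9, 15 and 14.3 CPM at 72 h. Here too no group overlapped another. The log2 fold changes against No Dox were -2.42, -1.61 and -1.38 (adjusted p = 1.03e-16, 3.32e-14 and 3.88e-13). MXI1 rose by 0.81 from 24 to 48 h (adjusted p = 3.91e-07) and was 2.06-fold higher at 72 h than at 24 h. Its last step, 0.24 (adjusted p = 0.0229), missed the threshold without 48 h replicate 1 (adjusted p = 0.0793), 48 h replicate 3 (0.0516) or 72 h replicate 1 (0.0923), and with effective lengths (0.11).

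MNT, the most widely expressed of the repressors, fell and then came most of the way back. It held 40.6, 39.8 and 44.5 CPM without Dox, 17.9, 16.5 and 18.9 CPM at 24 h, 31.4, 30.3 and 29.2 CPM at 48 h, and 33.6, 32.9 and 33.8 CPM at 72 h. The log2 fold change shrank from -1.23 at 24 h (adjusted p = 1.29e-12) to -0.46 at 48 h (adjusted p = 3.43e-06) and -0.32 at 72 h (adjusted p = 0.000252). The step from 24 to 48 h was 0.78 (adjusted p = 3.99e-08), and the later one, 0.14, did not pass (adjusted p = 0.109).

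MXD1, a repressor known from terminal differentiation, fell and stayed down. Its libraries held 22.2, 20.5 and 20.9 CPM without Dox, 10, 11.3 and 10.5 at 24 h, 9.89, 10.4 and 11.1 at 48 h, and 11, 12.3 and 11.8 CPM at 72 h. The Dox groups overlapped one another and none overlapped No Dox. The log2 fold change was -1.001 at 24 h (adjusted p = 1.42e-09), -1.03 at 48 h (adjusted p = 1.21e-09) and -0.86 at 72 h (adjusted p = 1.62e-08), and no step between times passed. At 24 h it lay at the 2-fold threshold, and it fell under it without No Dox replicate 1 (-0.96), 24 h replicate 1 (-0.95), 24 h replicate 3 (-0.98) or any 1 of the 48 h and 72 h libraries, by under 0.02. The same held with DESeq2, with no filter on low counts (-0.98) and with only the 2 groups compared (-0.99). At 48 h it did so without No Dox replicate 1 (-0.99) or 48 h replicate 1 (-0.98). MXD1 shares 237 exon bases with SNRNP27 on the same strand, and SNRNP27 was higher at 24 h by 0.83.

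MXD3, the MXD protein known from the S phase of dividing cells, was the only member that rose. It held 13.2, 15 and 12.8 CPM without Dox, 29.8, 25.6 and 26.2 CPM at 24 h, 28.6, 25.3 and 21.3 CPM at 48 h, and 27.4, 23.5 and 26.1 CPM at 72 h. Every library in Dox lay above every library without it, and the 3 times overlapped. The log2 fold changes were 1.004 (SE 0.10, adjusted p = 1.61e-08), 0.89 (adjusted p = 1.29e-07) and 0.92 (adjusted p = 8.27e-08). At 24 h it fell under 2-fold without No Dox replicate 1 (0.99), No Dox replicate 3 (0.97) or 24 h replicate 1 (0.94). MXD3 shares 1148 exon bases with PRELID1 on the opposite strand and 926 with RAB24 on its own. PRELID1 rose by 1.01 at 24 h, from 178 to 359 CPM, and RAB24 fell by 1.05. The kit marks strand, but RSEM's strand setting is not given in the sources used here, and the part of PRELID1 reads in the MXD3 counts was not tested.

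**Figure D2:**
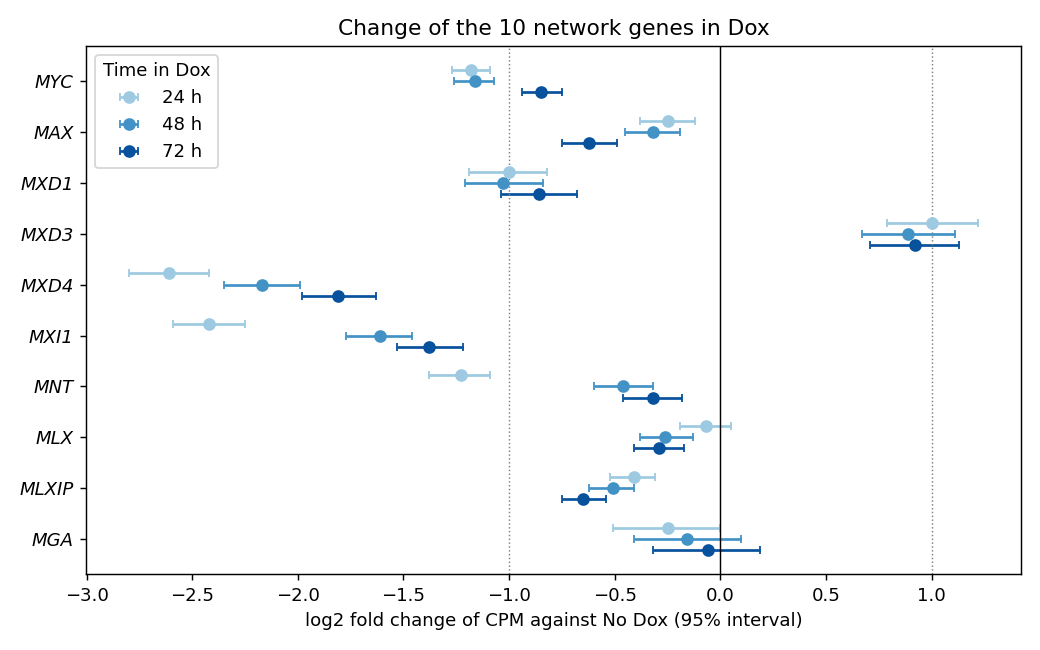
Log2 fold change of CPM against No Dox for each network gene at 24, 48 and 72 h in Dox, with 95% intervals; dotted lines mark 2-fold changes. The intervals of MXD4 and MXI1 lie beyond 2-fold lower at all 3 times, and the points of MXD3 are the only ones to the right of 0.

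The hubs and the Mondo arm changed by less than 2-fold. MAX, at 60.1, 57.3 and 60.7 CPM without Dox, stood at 48.9, 50.9 and 50.2 CPM at 24 h, 48.8, 47.4 and 46.6 CPM at 48 h, and 34.7, 39.6 and 41.4 CPM at 72 h. Its fall against No Dox was -0.25 (adjusted p = 0.00126), -0.32 (adjusted p = 0.000118) and -0.62 (adjusted p = 2.19e-08). The step from 48 to 72 h was -0.30 (adjusted p = 0.000947). On the deposited per-length scale (TPM) the log2 ratios of MAX to No Dox were -0.22, -0.14 and -0.52. There 24 h replicate 1 (58.3 TPM) equalled No Dox replicate 1 (58.3 TPM). MAX was lowest at 72 h, where MYC, MXD4 and MXI1 were higher than at 48 h. MLX did not pass at 24 h (-0.07, 95% interval -0.19 to 0.05, adjusted p = 0.282) and was lower by -0.26 at 48 h (adjusted p = 0.000611) and -0.29 at 72 h (adjusted p = 0.000176). Its step from 24 to 48 h, -0.18 (adjusted p = 0.0178), missed the threshold without 24 h replicate 1 (adjusted p = 0.0916) or 48 h replicate 2 (0.0964), and with effective lengths in edgeR (0.117) or DESeq2 (0.0649).

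MLXIP was lower by -0.41, -0.51 and -0.65 (adjusted p = 1.43e-07, 6.8e-09 and 1.92e-10), from 106, 108 and 106 CPM without Dox to 67.8, 68.2 and 68 CPM at 72 h. Its step from 48 to 72 h (-0.13, adjusted p = 0.0405) missed the threshold when any library other than 24 h replicate 2 or 48 h replicate 1 was left out (adjusted p of 0.0547 to 0.161). It also missed with DESeq2 (adjusted p = 0.0586) and, in edgeR, with DESeq2 size factors (0.0594) or upper-quartile scaling (0.0891). The same held with no filter on low counts (0.174), only the 2 groups compared (0.0951) or only nuclear protein-coding genes (0.0701). RSEM's effective length, the mean number of positions a fragment can start at over the transcripts it assigned, was 6205 ± 189 nt for MLXIP at 48 h and 5203 ± 277 nt at 72 h. With effective lengths in edgeR, 72 h against 24 h turned from -0.23 to 0.07 (adjusted p = 0.427), so the fall of MLXIP from 24 to 72 h held on the count scale only. MGA held 21.4, 23.7 and 21 CPM without Dox and 16 to 24.8 CPM in Dox. It passed in none of the comparisons with No Dox (-0.25, -0.16 and -0.06, with adjusted p = 0.0686, 0.264 and 0.655). The 95% interval at 72 h was -0.32 to 0.19, and with effective lengths in edgeR the 48 h and 72 h values were 0.07 and 0.06. Without 72 h replicate 3, MGA at 72 h exceeded 24 h by 0.31 (adjusted p = 0.0418).

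Counted together at an adjusted p under 0.05 and at least 2-fold, 1 of the 10 members was higher at 24 h (MXD3) and 5 were lower (MYC, MXD1, MXD4, MXI1 and MNT), where 12% and 17.7% of all genes tested were called. At 48 h 4 were lower (MYC, MXD1, MXD4 and MXI1), and at 72 h 2 (MXD4 and MXI1), while MXD3 stayed under 2-fold higher. Of all genes 10.6% were called higher and 14.4% lower at 48 h, and 10.2% and 12.3% at 72 h. By adjusted p alone, 1 was higher and 7 lower at 24 h (37.1% and 38.1% of all genes), 1 and 8 at 48 h (36.0% and 35.8%), and 1 and 8 at 72 h (34.3% and 34.8%). Between times, by adjusted p alone, 3 members rose and 1 fell from 24 to 48 h (18.3% and 18.3% of all genes), 3 rose and 2 fell from 48 to 72 h (18.6% and 20.1%), and at 72 h 4 were higher and 3 lower than at 24 h (30.5% and 30.2%).

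Levels of different genes were compared per length, in the deposited TPM. MYC was the most abundant member in every group, at 350 ± 3.56 TPM without Dox and 161 ± 2.92, 166 ± 5.79 and 208 ± 18.9 TPM at 24, 48 and 72 h. Without Dox, MAX (60 ± 2.73 TPM), MLX (58.8 ± 2.63) and MXD4 (53.5 ± 4.46) followed, each overlapping its neighbour. MXI1, MLXIP and MNT (21, 20.5 and 18.6 TPM) overlapped likewise, and MXD3, MXD1 and MGA were lowest. In Dox, MXD3 came next after MYC, MAX and MLX at every time, while MXD4 stood at 9.06 ± 1.19 TPM at 24 h. MYC stood at 5.85 ± 0.25 times the TPM of MAX without Dox and at 3.16 ± 0.398, 3.05 ± 0.226 and 4.95 ± 0.36 times in Dox.

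The 5 partners that bind SIN3 (MXD1, MXD3, MXD4, MXI1 and MNT) summed to 110 ± 4.19 TPM without Dox, 48 ± 3.87 at 24 h, 57.7 ± 1.01 at 48 h and 68 ± 3.01 TPM at 72 h. Divided by MYC in the same library, the sum was 0.33, 0.3 and 0.311 without Dox, 0.327, 0.27 and 0.298 at 24 h, 0.348, 0.363 and 0.336 at 48 h, and 0.34, 0.308 and 0.338 at 72 h. The ratio at 24 h and 72 h overlapped that without Dox, while each 48 h library lay above each No Dox library. It is a description over chosen members, with no test. Its make-up changed more than its size. MXD4 supplied 48.6 ± 2.18% of the sum without Dox and 18.9 ± 1.68% at 24 h, and MXD3 supplied 10.6 ± 1.14% and 52 ± 2.94%. Leaving MXD3 out, the ratio was 0.28 ± 0.0172 without Dox and 0.143 ± 0.00838, 0.216 ± 0.00864 and 0.209 ± 0.012 in Dox, so its closeness to the No Dox value rested on MXD3. As said above, MXD3 shares exon bases with PRELID1, which also rose, and the part of PRELID1 reads in the MXD3 values was not tested.

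**Figure D3:**
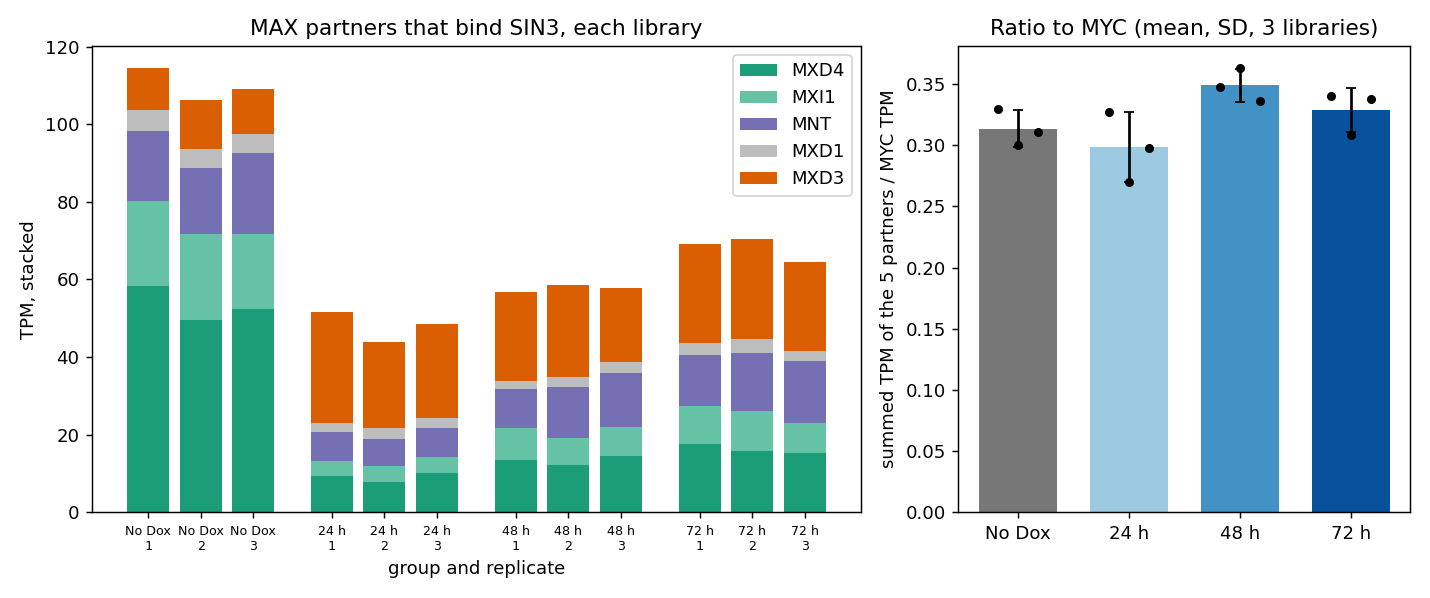
Left, TPM of the 5 SIN3-binding MAX partners stacked for each of the 12 libraries; right, their sum divided by MYC TPM, with means, SD and the 3 libraries of a group. The stack falls from 110 to 48 TPM at 24 h and MXD3 becomes its largest part, while the ratio means stay between 0.298 and 0.349. The part of PRELID1 reads in the MXD3 values was not tested.

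Genes on which the network acts were followed as lists, read against a median log2 fold change over all genes of -0.03, -0.01 and -0.02. All 40 MYC-activated growth genes were tested. At least 2-fold, 13 were higher at 24 h, 8 at 48 h and 2 at 72 h, with medians of 0.71, 0.49 and 0.35. The 2-fold shares of the whole tested set were 12%, 10.6% and 10.2% higher. The 24 h and 48 h counts of growth genes lay above those shares, and the 2 of 40 at 72 h lay below. By adjusted p alone 38, 39 and 29 were higher and 1, 1 and 2 lower. Of all genes, 37.1%, 36.0% and 34.3% were higher and 38.1%, 35.8% and 34.8% lower by that measure. MYC RNA was lower at the same times. TCOF1, a factor of ribosomal RNA transcription, rose from 151 ± 6.19 to 500 ± 24 CPM at 24 h (adjusted p = 1e-17) and was at 335 ± 10.6 CPM at 72 h. MRTO4, a ribosome assembly factor, went from 67.9 ± 5.09 to 213 ± 6.43 and 99.9 ± 6.54 CPM at the same times. SRM, which makes spermidine, had log2 fold changes of 1.40, 1.06 and 0.60, and PA2G4, a growth regulator, of 1.37, 1.20 and 0.97.

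Of 15 tested genes that MYC is known to repress, 3 were at least 2-fold higher and 6 lower at 24 h. At 48 h and at 72 h 4 were higher and 4 lower. Among all genes tested, 12%, 10.6% and 10.2% were higher and 17.7%, 14.4% and 12.3% lower by that measure. By adjusted p alone 6, 6 and 7 of the 15 were higher and 8, 7 and 6 lower. The shares of all genes were then 37.1%, 36.0% and 34.3% higher and 38.1%, 35.8% and 34.8% lower. The medians of the 15 were -0.56, -0.13 and 0.02. THBS1, a matrix glycoprotein, rose from 325 ± 3.39 to 2249 ± 81.2 CPM at 24 h. FTH1, the ferritin heavy chain, fell from 7450 ± 60.1 to 958 ± 30.2 CPM, and CEBPD, a differentiation factor, fell from 224 ± 7.55 to 35.8 ± 6.5 CPM. CDKN1C, an inhibitor of cyclin-dependent kinases, fell by 2.96 on the log2 scale at 24 h and at 72 h was above No Dox by 0.68 (adjusted p = 9.9e-06).

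The 6 targets of the MondoA and MLX arm fell together by adjusted p at all 3 times. Of all genes tested, 38.1%, 35.8% and 34.8% were lower by that measure. At least 2-fold, 5, 5 and 4 of the targets were lower, against 17.7%, 14.4% and 12.3% of all genes. The medians of the targets were -1.88, -1.72 and -1.87. TXNIP, a brake on glucose uptake, went from 1447 ± 36.6 CPM to 12.9 ± 0.978 at 24 h (adjusted p = 7.28e-24), 51.6 ± 1.73 at 48 h and 167 ± 15.1 CPM at 72 h. PDK4, which restrains pyruvate oxidation, went from 99.1 ± 3.8 to 1.74 ± 0.105, 3.36 ± 0.597 and 5.67 ± 0.56 CPM. ARRDC2 and ARRDC3, arrestin-domain relatives of TXNIP, were lower at 24 h by -2.05 and -1.72, and ARRDC3 was back to -0.48 at 72 h. MLX itself had not passed the test at 24 h, while MLXIP was lower by -0.41 (adjusted p = 1.43e-07). MLXIPL, the other Mondo gene, stayed at 0 to 0.229 CPM and was not tested.

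**Figure D4:**
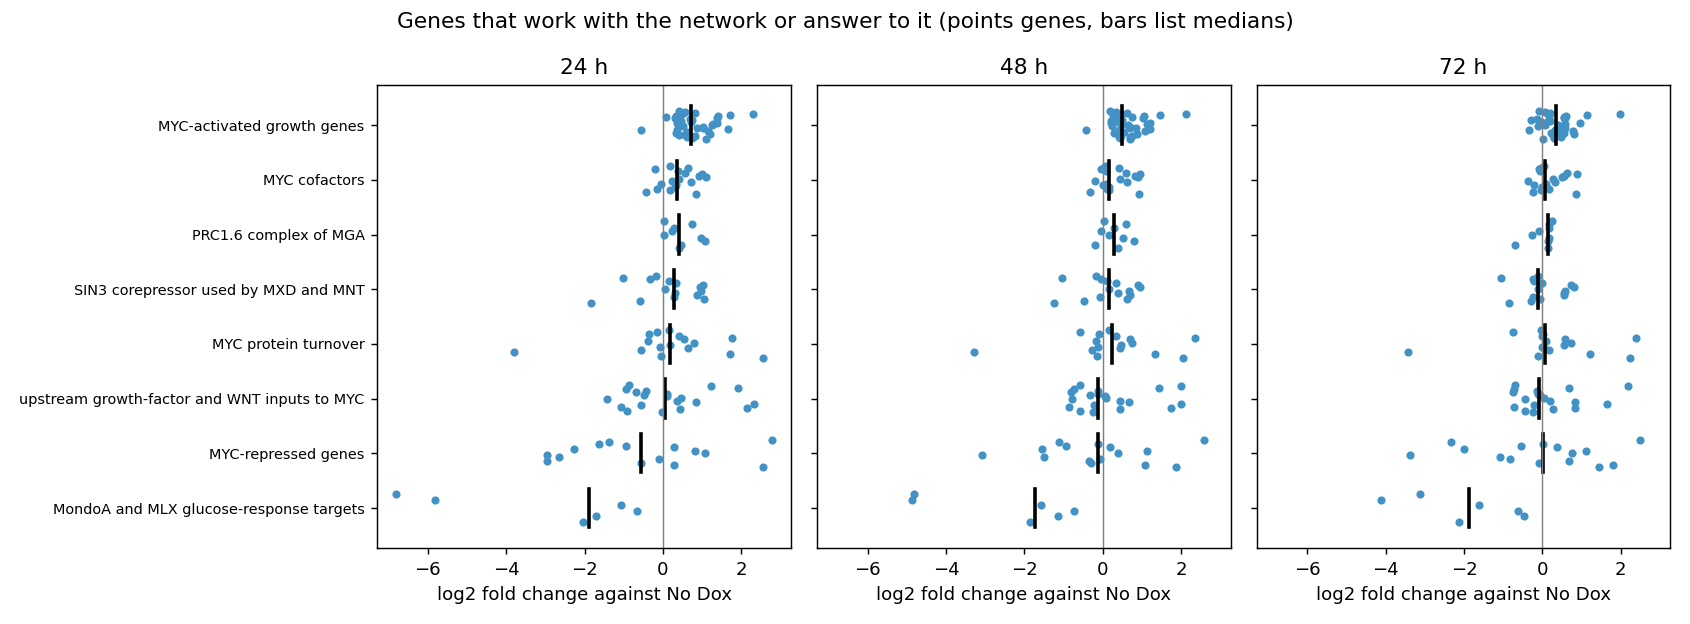
Log2 fold change against No Dox at 24, 48 and 72 h of the tested genes in 8 lists of cofactors, regulators and targets of the network (points), with each list's median (bars). The MYC-activated growth genes lie mostly right of 0 with medians of 0.71, 0.49 and 0.35, and the 6 MondoA and MLX targets all lie left of 0.

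The complexes that members recruit held genes moving both ways. Of 18 MYC cofactors 1 was at least 2-fold higher at 24 h (PAF1, an elongation factor subunit, 41.9 ± 1.78 to 89 ± 7.6 CPM), and 13, 10 and 7 were higher and 2, 2 and 3 lower by adjusted p alone at 24, 48 and 72 h. For scale, 12% of all genes tested were at least 2-fold higher at 24 h. By adjusted p alone 37.1%, 36.0% and 34.3% of all genes were higher and 38.1%, 35.8% and 34.8% lower at the 3 times. Of 15 SIN3 complex genes, 2 were at least 2-fold higher and 2 lower at 24 h, 2 were lower at 48 h and 1 at 72 h. The 24 h shares were near those of all genes, 12% higher and 17.7% lower. At 48 and 72 h 14.4% and 12.3% of all genes were lower. By adjusted p alone 8 of the 15 were higher and 5 lower at 24 h. SIN3B, a scaffold that MXD proteins bind, fell from 120 ± 2.61 to 59 ± 2.88, 58.2 ± 1.26 and 57.8 ± 1.97 CPM. ARID4A fell by 1.83 on the log2 scale at 24 h, and SAP130 and BRMS1 rose by 1.03 and 1.05. In the PRC1.6 complex of MGA, 1 of 9 genes was at least 2-fold higher at 24 h (L3MBTL2, 1.06), a share near that of all genes, and by adjusted p alone 7, 5 and 3 of the 9 were higher at 24, 48 and 72 h, and 1 and 2 lower at 48 and 72 h. Of 16 germline genes 4 passed the count filter, and of these 1 was at least 2-fold higher and 1 lower at each time. Among all genes 12%, 10.6% and 10.2% were higher and 17.7%, 14.4% and 12.3% lower. STAG3, a cohesin subunit of meiosis named after its values were seen, was at 0.848 ± 0.0964 CPM without Dox and lower by -2.02, -2.40 and -2.12 (adjusted p = 0.00274, 0.00112 and 0.0021). These rest on 12, 9.02 and 11.7 counts summed over the 3 libraries at 24, 48 and 72 h. RSEM's SD of the STAG3 count, from splitting shared reads, was up to 15.9%, 3.98% and 47% of the count in a library. TDRKH rose from 5.72 ± 0.845 to 20.5 ± 1.89 CPM at 72 h.

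Among 16 genes for MYC protein turnover, 3 were at least 2-fold higher and 1 lower at each time. For all genes tested, the shares were 12%, 10.6% and 10.2% higher and 17.7%, 14.4% and 12.3% lower. By adjusted p alone 8, 8 and 7 of the 16 were higher and 5, 5 and 2 lower. By that measure 37.1%, 36.0% and 34.3% of all genes were higher and 38.1%, 35.8% and 34.8% lower. AURKA, a kinase that shields MYC-family proteins, rose from 37.1 ± 2.42 to 216 ± 6.2 CPM at 24 h. SKP2, a ubiquitin ligase subunit, rose from 54 ± 0.778 to 280 ± 16.1 CPM at 72 h, and CIP2A, a phosphatase inhibitor, from 24.5 ± 0.799 to 80.1 ± 6.83 CPM at 24 h. FBXO32, another ligase subunit, fell from 21 ± 0.897 to 1.48 ± 0.72 CPM. MYC protein was not measured in these files. Of 20 tested genes upstream of MYC, 4 were higher and 2 lower at 24 h, 3 were higher at 48 h and 2 at 72 h, where 12% and 17.7%, 10.6% and 10.2% of all genes were. By adjusted p alone 8, 6 and 6 of the 20 were higher and 9, 10 and 9 lower. The shares of all genes by that measure were again 37.1%, 36.0% and 34.3% higher and 38.1%, 35.8% and 34.8% lower. At 24 h FOXM1, a cell cycle factor, rose from 46.7 ± 0.0398 to 234 ± 6.9 CPM. At that time E2F1 rose by 2.14 and TCF7L1, a WNT pathway factor, by 1.23, while KLF5 fell by 1.43. From 24 to 72 h FOXM1 went down to 148 ± 7.18 CPM and E2F1 from 44.7 ± 2.14 to 18 ± 2.51 CPM. Over the same span TCF7L1 went up from 5.87 ± 1.16 to 11.3 ± 2.02 CPM and KLF5 from 84.1 ± 4.85 to 165 ± 10.3 CPM.

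Over the 12 libraries, the 6 genes whose log2 CPM followed MYC most closely, of 10324 protein-coding genes of at least 5 mean CPM, were ABCC3 (Pearson r = 0.998), RAPGEFL1 (0.997), ENTPD2 (0.996), CHST15 (0.995), ALOX15B (0.994) and FOXC2 (0.994). These values are a description, since the libraries fall into groups that share treatment. ABCC3, a drug and bile salt transporter, stood at 527 CPM without Dox and at 64.3, 59.6 and 116 CPM in Dox. A course close to that of MYC follows from how these genes were chosen. Among members, MXD4 (0.981), MXD1 (0.978) and MXI1 (0.944) followed MYC most closely, at ranks 130, 160 and 650 of the 10324 genes. MXD3 ran opposite (-0.922) at rank 8805, so many genes ran more opposite to MYC than it did.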

How the data were processed

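Poly(A)-selected, strand-marked paired-end RNA libraries were made from MCF10A cells with inducible TAZ-4SA. Per the submitters' notes and methods, the authors aligned reads with STAR to GRCh38 (GENCODE 22) and estimated gene levels with RSEM (versions not given in the sources used here). The deposited gene tables hold RSEM expected counts, used for all tests after rounding, and TPM, used as deposited to compare genes. RSEM splits reads that fit several genes between them. FPKM was not used. Names came from GENCODE 44 by stable identifier for 56321 of 60483 rows.

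Genes were kept with filterByExpr (14822), scaled with TMM and fitted in 1 edgeR quasi-likelihood model over all 12 libraries with group means (edgeR 4.0.16 in R 4.3.3), and p-values were adjusted over all genes tested. Calls required an adjusted p under 0.05 and, where stated, a change of at least 2-fold. Steps between times used adjusted p alone. The fit was tested on simulated data. The members and the 13 gene lists were chosen with earlier results of these data known. Named list genes were the 4 with the largest change among those called and of at least 5 CPM, or every gene of a list of 3 or fewer. Replicate numbers were not used to pair the libraries in the main fit. Correlations of deviations were -0.205 to 0.32 in 18 same-number pairs, 3 of them over 0.1. Such values cannot exclude that libraries of the same number shared a culture or batch, which the labels do not state. Alternatives were DESeq2 1.42.0, effective lengths, other scalings and filters, glmTreat, fits of only 2 groups, a replicate block, and each library left out in turn.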

Additional observations from a re-analysis of the deposited data

Results flagged for a closer look

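The change against No Dox differed between times in Dox, by a test of the difference itself (adjusted p under 0.05, edgeR), for 7 of the 10 members between 24 and 72 h, a share near that of all genes tested (30.5% higher and 30.2% lower). The largest was MXI1, whose fall of -2.42 at 24 h had shrunk to -1.38 at 72 h, a difference of 1.04 on the log2 scale (adjusted p = 1.8e-09). All 3 libraries at 72 h (15.9, 15 and 14.3 CPM) lay above all 3 at 24 h (7.16, 7.2 and 7.5 CPM). At 72 h MNT exceeded 24 h by 0.92, MXD4 by 0.80 and MYC by 0.33, while MAX (-0.37), MLX (-0.22) and MLXIP (-0.23) were lower. Between 24 and 48 h the differences were 0.81 for MXI1, 0.78 for MNT, 0.44 for MXD4 and -0.18 for MLX. Between 48 and 72 h they were 0.36 for MXD4, 0.32 for MYC, 0.24 for MXI1, -0.30 for MAX and -0.13 for MLXIP. The values for MLXIP turned positive with effective lengths.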

How the results depend on the processing

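Totals were 15382564 counts or more per library, and at 0.0922 to 1.44 CPM the change of MYCL at 72 h had a 95% interval of 1.61 to 3.42. The number of members passing adjusted p from 48 to 72 h was 5, and was 3 with no filter on low counts and 2 with effective lengths in edgeR or DESeq2. It ran from 3 to 5 when 1 library was left out. MLXIP turned on effective lengths, from -0.13 to 0.10 (edgeR) and 0.11 (DESeq2) for 72 h against 48 h, and from -0.23 to 0.07 and 0.06 for 72 h against 24 h; its effective length differed between these times. The cause of the other shifts was not tested. The ratio of the 5 partners to MYC relative to No Dox was 0.951, 1.11 and 1.05, and without MXD3 it was 0.509, 0.772 and 0.746. Members called at 24 h numbered 6, and 4 with glmTreat, without No Dox replicate 1 or without 24 h replicate 1. With upper-quartile scaling or protein-coding genes alone (chosen after seeing the data), MXD3 at 24 h was 0.95 and 0.97. The replicate block left 6, 4 and 2 members called at 24, 48 and 72 h. MYC cofactors called at 24 h went from 1 to 2 with DESeq2 or no filter.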
